A study of Homo sapiens with 9 samples.

Results

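The clustered protocadherin genes were taken as every entry of the deposited expression table whose name starts with PCDHA, PCDHB or PCDHG. The rule used names only and no measured value. It found 57 genes of 23278, of which 15 belong to the alpha cluster, 19 to the beta cluster and 23 to the gamma cluster. RNA was sequenced from RT112, a long-established cell line from a human bladder carcinoma, after transduction with 1 of 3 short hairpin RNAs. The control libraries carried a hairpin named shNT, and the silenced libraries carried sh1 or sh2, both directed against STAG2, with 3 replicates for each hairpin and 9 libraries in all. All 9 came from transduced cells that had been moved to medium without serum, so nothing here describes untransduced cells or cells in serum. RT112 is a single tumour line, and the labels do not say whether replicates are separate cultures, so the p-values speak only of the spread among these libraries, which may be technical.

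Protocadherins are cell surface proteins of the cadherin family. The alpha, beta and gamma genes lie side by side on human chromosome 5. In the alpha and gamma clusters each gene contributes its own large first exon, which is spliced to constant exons that all genes of the cluster share, whereas each beta gene is a single exon. Every variable exon has its own promoter. In neurons each cell uses a small set of these promoters and so gains a surface identity, while the C-type genes at the end of the alpha and gamma clusters are used more evenly across cells. Many of the promoters carry a conserved sequence element with the core CGCT. The insulator protein CTCF binds there, and cohesin, the ring complex of which STAG2 is a subunit, forms loops between these promoters and distant enhancers.

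The promoter stretches below show the core in several members that carried much of the signal of each cluster, beside PCDHB1, PCDHA11 and PCDHA9. PCDHB5, which ranked next among the beta members after PCDHB14 and PCDHB2, has no core in its stretch and is not printed. Each is a run of 60 bases, from 90 to 31 bases before the RefSeq transcription start, on the plus strand of GRCh38.p14, read 5′ to 3′ with the core CGCT in capitals. PCDHGC3 (chr5:141475876-141475935) was the highest gamma member and has the core at both marked places. PCDHGB6 (chr5:141407931-141407990, first of its listed starts), PCDHGB7 (chr5:141417587-141417646) and PCDHGA9 (chr5:141402688-141402747) were the next 3 gamma members. PCDHB14 (chr5:141223253-141223312) and PCDHB2 (chr5:141094525-141094584) were the highest beta members, and PCDHB1 (chr5:141051284-141051343) was listed at 0 in every library. PCDHA4 (chr5:140806978-140807037) was the highest alpha member, PCDHA11 (chr5:140868867-140868926) was at or near 0 in every library, and PCDHA9 (chr5:140848292-140848351) has no core in the stretch.
PCDHGC3: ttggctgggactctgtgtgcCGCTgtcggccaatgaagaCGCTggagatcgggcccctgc
PCDHGB6: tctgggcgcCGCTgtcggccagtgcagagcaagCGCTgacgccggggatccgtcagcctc
PCDHGB7: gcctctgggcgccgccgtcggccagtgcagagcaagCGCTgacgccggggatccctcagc
PCDHGA9: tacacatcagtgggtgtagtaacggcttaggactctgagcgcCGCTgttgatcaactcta
PCDHB14: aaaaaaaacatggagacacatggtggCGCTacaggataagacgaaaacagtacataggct
PCDHB2: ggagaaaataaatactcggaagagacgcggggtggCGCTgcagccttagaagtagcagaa
PCDHB1: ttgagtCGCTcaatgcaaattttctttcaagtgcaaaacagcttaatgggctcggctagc
PCDHA4: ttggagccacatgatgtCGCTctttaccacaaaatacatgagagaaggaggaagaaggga
PCDHA11: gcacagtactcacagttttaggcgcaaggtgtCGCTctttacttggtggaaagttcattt
PCDHA9: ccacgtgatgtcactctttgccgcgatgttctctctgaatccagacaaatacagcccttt

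The RefSeq promoter table held 47 of the 57 members. The core CGCT, searched on the strand of the gene from 100 to 21 bases before the start, was present in 43 of these 47 (91.5%), against 26.6% of all 27305 genes in the table. On either strand the counts were 91.5% of members and 42.4% of all genes. The core, as a match of 4 letters, did not separate the members by level. It was present in 24 of 27 members with a mean of at least 0.1 FPKM (88.9%) and in 19 of 20 members below that level (95%). FPKM is the number of fragments per kilobase of transcript, relative to the mapped fragments of the library. The letters next to the core differed by cluster, as most of the printed stretches show. The form TGTCGCT stood in the searched window of 10 of 13 alpha promoters, 0 of 14 beta promoters and 3 of 20 gamma promoters, against 0.304% of all genes. TGGCGCT stood in 11 of 14 beta promoters, 0 of 13 alpha promoters and 2 of 20 gamma promoters, against 0.758% of all genes. CCGCTGT stood in 11 of 20 gamma promoters and in 0 of 13 alpha and 0 of 14 beta promoters, against 0.630% of all genes. These 3 longer forms contain the core, were searched on the strand of the gene, and were chosen after the sequences had been seen. With the opposite strand added, the shares of all genes were 0.520%, 1.32% and 1.20%, respectively. A match is a description of the letters and shows no binding. The core alone is 4 letters long and stood in 26.6% of all genes, so a match need not be the conserved element. In PCDHB1 the marked core is not in the form TGGCGCT. The only marked core of PCDHGB7 is not in the form CCGCTGT, and neither is the later marked core of PCDHGC3 or PCDHGB6.

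**Figure D1:**
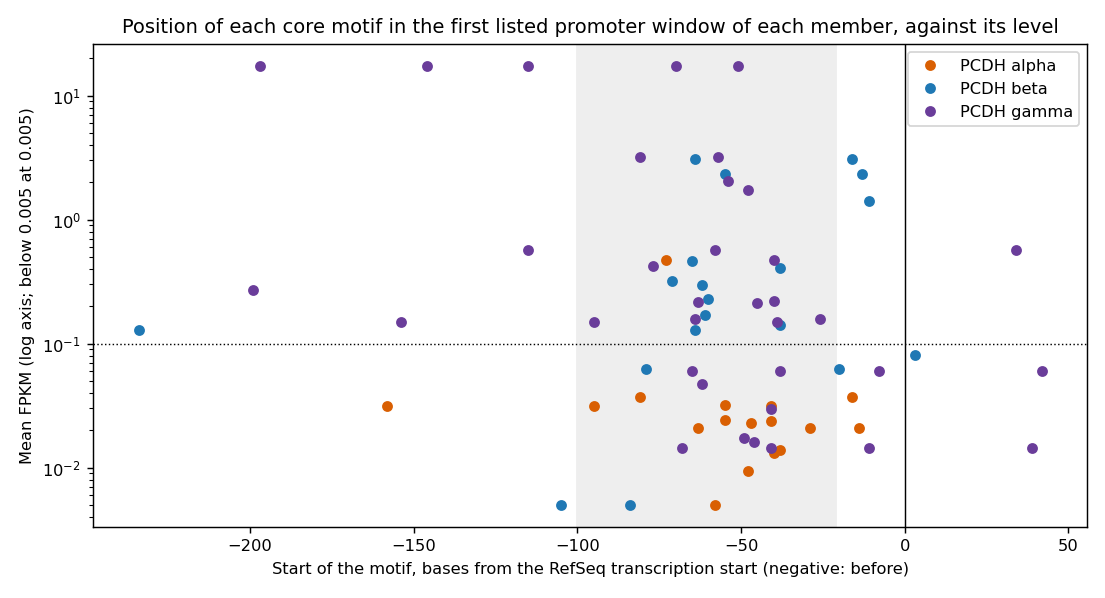
Each point is one occurrence of the core CGCT on the gene strand in the first listed promoter window of a member, placed by its distance in bases from the transcription start (horizontal axis) and by the mean FPKM of the gene over 9 libraries (vertical axis, log scale; values below 0.005 drawn at 0.005). Most points lie in the grey band from 100 to 21 bases before the start, above and below the dotted line at 0.1 FPKM.

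Of the 57 members, 8 reached a mean of 1 FPKM over the 9 libraries, 4 in the beta cluster and 4 in the gamma cluster, and none in the alpha cluster. A mean of 1 FPKM was reached by 51.3% of all genes. In bulk RNA, a gene read in few cells and a gene with little RNA per cell cannot be told apart, so a low mean here does not say which of these holds. A further 22 members had a mean between 0.1 and 1 FPKM, 2 alpha, 10 beta and 10 gamma. The remaining 27 were below 0.1 FPKM, 13 alpha, 5 beta and 9 gamma. The threshold of 1 FPKM fell in a gap, with PCDHB11 just above it at a mean of 1.31 FPKM and PCDHGB1 next below at 0.567 FPKM. At the threshold of 0.1 FPKM, PCDHA9 lay just inside at 0.113 FPKM and PCDHB8 just outside at 0.0806 FPKM.

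**Figure D2:**
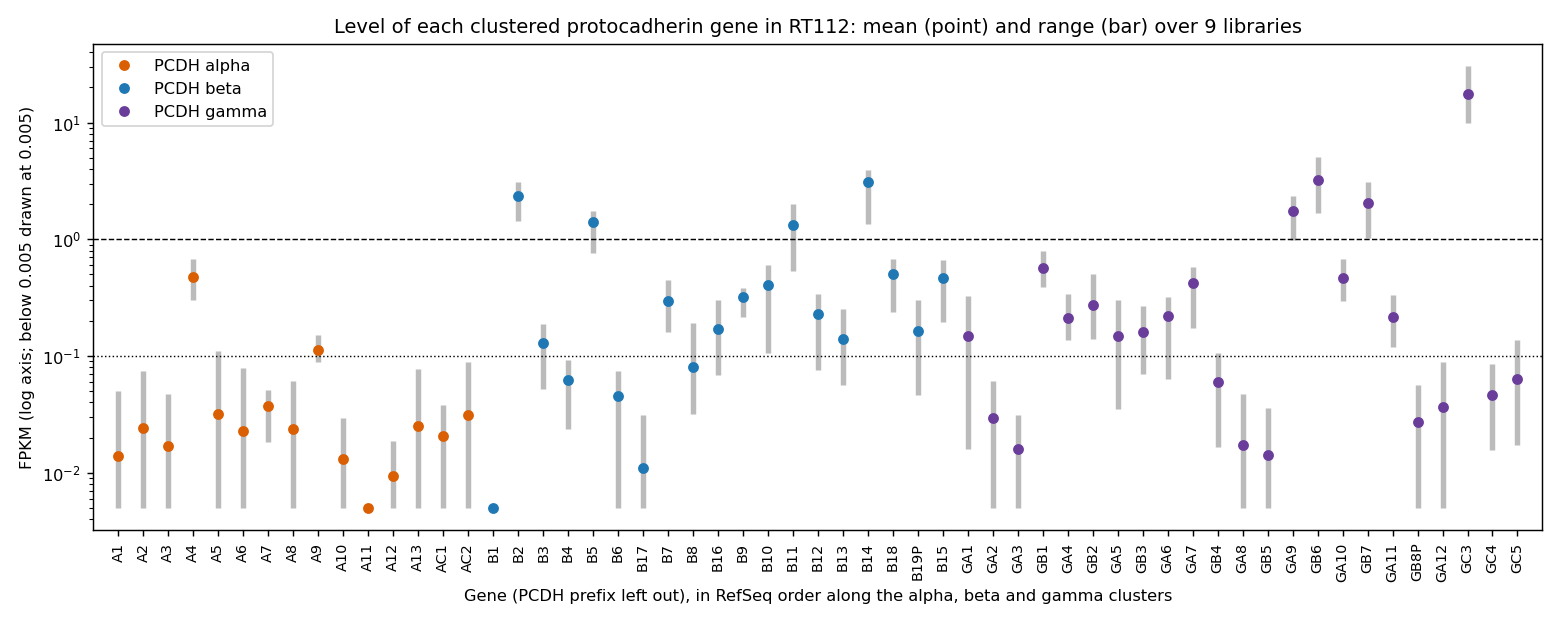
Mean FPKM (point) and range over 9 libraries (grey bar) of the 57 members in their order along the alpha, beta and gamma clusters, on a log axis; values below 0.005 are drawn at 0.005. PCDHGC3 stands alone near the right end with a mean of 17.4 FPKM, 8 members lie above the dashed line at 1 FPKM, and nearly all alpha members lie below the dotted line at 0.1 FPKM.

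In the gamma cluster 1 gene dominated. PCDHGC3, the first of the 3 C-type gamma genes, had a mean of 17.4 FPKM, and its lowest library (9.89 FPKM) was above the highest library of any other member (PCDHGB6, 5.04 FPKM). It made up a mean of 62.5% of the summed FPKM of the gamma cluster, from 51.1% to 81.3% by library. Its neighbours PCDHGC4 and PCDHGC5, the other C-type gamma genes, had means of 0.0468 and 0.0642 FPKM. The next gamma members were PCDHGB6 (mean 3.21 FPKM), PCDHGB7 (2.06 FPKM) and PCDHGA9 (1.75 FPKM). These 3 are close neighbours in the locus, and the ranges of their libraries overlapped. Because gamma genes share constant exons, and the sources used here do not give how fragments from shared exons were divided, the FPKM of each alpha or gamma gene is uncertain in a way that a beta gene is not. Near-identical stretches between neighbouring variable exons add to this, in all 3 clusters.

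The other gamma members above 0.1 FPKM belonged to the A and B types and ranged widely between libraries. PCDHGB1 had the highest of these means and ran from 0.386 to 0.798 FPKM. PCDHGA10 ran from 0.296 to 0.677 FPKM, PCDHGA7 from 0.173 to 0.580 FPKM, and PCDHGB2 from 0.139 to 0.507 FPKM. PCDHGA6, PCDHGA11 and PCDHGA4 stayed between 0.0640 and 0.339 FPKM. PCDHGB3 ran from 0.0701 to 0.266 FPKM, PCDHGA5 from 0.0351 to 0.304 FPKM, and PCDHGA1 from 0.0158 to 0.330 FPKM. In PCDHGA5 and PCDHGA1 the highest library was many-fold above the lowest. In PCDHGA1 both were sh2 libraries, replicate 1 the lowest and replicate 2 the highest. The 9 gamma members below 0.1 FPKM never exceeded 0.138 FPKM.

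In the beta cluster the signal was spread over more genes. PCDHB14 led with a mean of 3.10 FPKM and a mean share of 27.6% of the summed beta FPKM, followed by PCDHB2 with 2.33 FPKM and 20.9%. PCDHB5 and PCDHB11 had means of 1.40 and 1.31 FPKM. PCDHB18, whose RefSeq entry is a pseudogene, ran from 0.238 to 0.674 FPKM, a higher mean than most intact beta genes. PCDHB15 ran from 0.194 to 0.663 FPKM, PCDHB10 from 0.105 to 0.606 FPKM, and PCDHB9 from 0.218 to 0.382 FPKM. PCDHB7 ran from 0.162 to 0.449 FPKM, and PCDHB12 from 0.0755 to 0.341 FPKM. PCDHB16, PCDHB13 and PCDHB3 stayed between 0.0527 and 0.301 FPKM, and the pseudogene PCDHB19P between 0.0463 and 0.302 FPKM. The 5 beta members below 0.1 FPKM were PCDHB1, PCDHB4, PCDHB6, PCDHB8 and PCDHB17. PCDHB1, the first gene of the cluster, was listed at 0 in every library.

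The alpha cluster had the least signal in this line. Its summed level lay between 0.582 and 1.11 FPKM in the 9 libraries, against 5.88 to 14.2 FPKM for the beta cluster and 16.2 to 37.4 FPKM for the gamma cluster. PCDHA4 gave a mean of 55.3% of the alpha sum. It had 0.301, 0.306 and 0.681 FPKM in the control replicates 1 to 3, 0.429, 0.492 and 0.379 FPKM with sh1, and 0.677, 0.456 and 0.533 FPKM with sh2. The control library of replicate 3 was its highest, so the groups overlapped. PCDHA9 followed with 0.0882 to 0.152 FPKM. The C-type genes PCDHAC1 and PCDHAC2 had means of 0.0208 and 0.0314 FPKM, and PCDHA11 stayed at or under 1e-10 FPKM in all 9 libraries. Of the 135 alpha values, 43 were positive but at or below 1e-10 FPKM, as can come from an iterative estimate rather than from counted fragments. No beta value was of that kind, and 4 gamma values were. The depth of the libraries is unknown from these files, so no limit of detection can be given for these genes.

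Control replicate 1 differed from the other libraries by gene length, and its values below are to be read beside this. Across the 10721 tested genes with a known transcript length, Spearman's rho between length and the gene's deviation was -0.59 in that library and between -0.048 and 0.30 in the other 8. Genes are not independent replicates, and this is given as a description. The 8 members of at least 1 FPKM had a median transcript length of 4603 bases, against 3647 bases over the tested genes. In control replicate 3, where most beta and gamma members were low too, rho was -0.022. The part of length in the members' values was not tested.

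STAG2 itself checked the labels. It had 16.8, 34.7 and 27.7 FPKM in the control replicates 1 to 3 and 3.41 to 5.34 FPKM in the 6 silenced libraries. With both hairpins pooled it fell by 2.36 on the log2(FPKM + 1) scale (SE 0.21, limma adjusted p = 0.00797). Changes below are on that scale unless another is named. It understates the change of genes near 1 FPKM, and all comparisons against the control share the same 3 control libraries. The SE and adjusted p of each gene come from the fit with hairpin as its only term, unless the replicate number is named as a block.

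No clustered protocadherin gene changed at an adjusted p of 0.05 in any comparison of hairpins. The 8 members with a mean of at least 1 FPKM entered the limma fit over 11952 genes, and 0 of 8 passed with sh1 against control (0.167% of all genes tested), with sh2 against control (0.00837%), with both hairpins against control (0.00837%) or between sh2 and sh1 (0.218%). With the replicate number as a block in the model, 77 genes passed with sh1 in place of 20 (0.644%), and 17 between the hairpins in place of 26 (0.142%), and 0 of 8 members passed in any of these comparisons. At an unadjusted p of 0.05, 1 of 8 passed with sh1 (13.5% of all genes), 0 of 8 with sh2 (12.7%), 1 of 8 with both hairpins (12.6%) and 0 of 8 between the hairpins (14.1%). That member was PCDHB2 in both cases, above control each time (6.67% of all genes with sh1 and 6.23% with both). With the block, 1 of 8 passed at an unadjusted p of 0.05 with sh1 (18.3% of all genes), PCDHB2, and 2 of 8 with sh2 (17.5%), PCDHB11 and PCDHGA9. With both hairpins 3 of 8 passed under the block (17.2%), PCDHB2, PCDHB11 and PCDHGA9, and between the hairpins 0 of 8 (18.7%). Members that passed under the block were all above control. The shares of all genes above it were 8.94% with sh1, 8.33% with sh2 and 8.75% with both. The median change of the 8 members with both hairpins was 0.22, against -0.017 over all genes tested, and 7 of 8 were above 0 (47.3% of all genes). With spike-in scaling, 8 of 8 members and 72.9% of all genes were above 0. The filter used the mean of all 9 libraries, and 49 of the 57 members did not pass it.

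PCDHB2 had 1.59, 2.36 and 1.45 FPKM in the control replicates 1 to 3, 2.74, 3.12 and 2.94 FPKM with sh1, and 1.78, 2.74 and 2.26 FPKM with sh2. All sh1 libraries were above all control libraries, whereas the sh2 libraries overlapped the control. The change was 0.50 with sh1 (SE 0.17, adjusted p = 0.258), 0.22 with sh2 (SE 0.17, adjusted p = 0.552) and 0.36 with both (SE 0.15, adjusted p = 0.369). With the replicate number as a block, the limma adjusted p was 0.121 with sh1, 0.387 with sh2 and 0.207 with both.

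PCDHB11 had 0.805, 1.60 and 0.537 FPKM in the control replicates, 1.36, 1.33 and 1.30 FPKM with sh1, and 1.44, 2.02 and 1.44 FPKM with sh2. The control replicate 2 was above all sh1 libraries and 2 sh2 libraries, while the other two controls were below all 6 silenced libraries. Its change with both hairpins was 0.35 (SE 0.17, adjusted p = 0.416). With the replicate number as a block, the limma adjusted p was 0.255.

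PCDHB14 had 3.47, 3.71 and 1.34 FPKM in the control replicates, 3.31, 3.77 and 3.56 FPKM with sh1, and 2.12, 3.94 and 2.66 FPKM with sh2. Only the control replicate 3 stood below the silenced libraries. The change was 0.19 (SE 0.23, adjusted p = 0.721), and without control replicate 3 it was -0.14.

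PCDHB5 had 1.37, 1.39 and 1.03 FPKM in the control, 1.39, 1.63 and 1.71 FPKM with sh1, and 0.768, 1.58 and 1.75 FPKM with sh2. The sh2 replicate 1 was the lowest of the 9 libraries and the sh2 replicate 3 the highest. The change was 0.11 (SE 0.16, adjusted p = 0.755).

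PCDHGA9 had 0.991, 1.99 and 1.14 FPKM in the control replicates, 1.44, 2.06 and 1.93 FPKM with sh1, and 1.87, 2.34 and 1.96 FPKM with sh2. The control replicates 1 and 3 were the lowest libraries, and control replicate 2 lay among the silenced ones. The change was 0.32 (SE 0.16, adjusted p = 0.418). With the replicate number as a block, the limma adjusted p was 0.237.

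PCDHGB7 had 1.03, 3.07 and 1.31 FPKM in the control replicates, 1.72, 2.24 and 1.60 FPKM with sh1, and 2.80, 2.76 and 2.05 FPKM with sh2. The control group held both the highest library and the 2 lowest. The change was 0.24 (SE 0.21, adjusted p = 0.607).

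PCDHGB6 had 2.95, 4.30 and 1.69 FPKM in the control replicates, 2.65, 3.12 and 2.63 FPKM with sh1, and 3.31, 5.04 and 3.20 FPKM with sh2. Replicate 2 was the highest library with each hairpin. The change was 0.15 (SE 0.21, adjusted p = 0.748), with -0.013 for sh1 (0.064 with spike-in scaling) and 0.32 for sh2, and the difference between the hairpins was 0.33 (SE 0.24, adjusted p = 0.568).

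PCDHGC3 had 30.4, 18.7 and 9.89 FPKM in the control replicates, 17.1, 14.9 and 15.8 FPKM with sh1, and 19.0, 15.2 and 15.4 FPKM with sh2. The 6 silenced libraries lay close together between the highest and the lowest control library. Its change was -0.14 (SE 0.27, adjusted p = 0.826). Without control replicate 1 the change was 0.23 (adjusted p = 0.683), and without control replicate 3 it was -0.54 (adjusted p = 0.427), so its sign rested on which control library was used. With scaling by the spike-ins the change was 0.034.

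**Figure D3:**
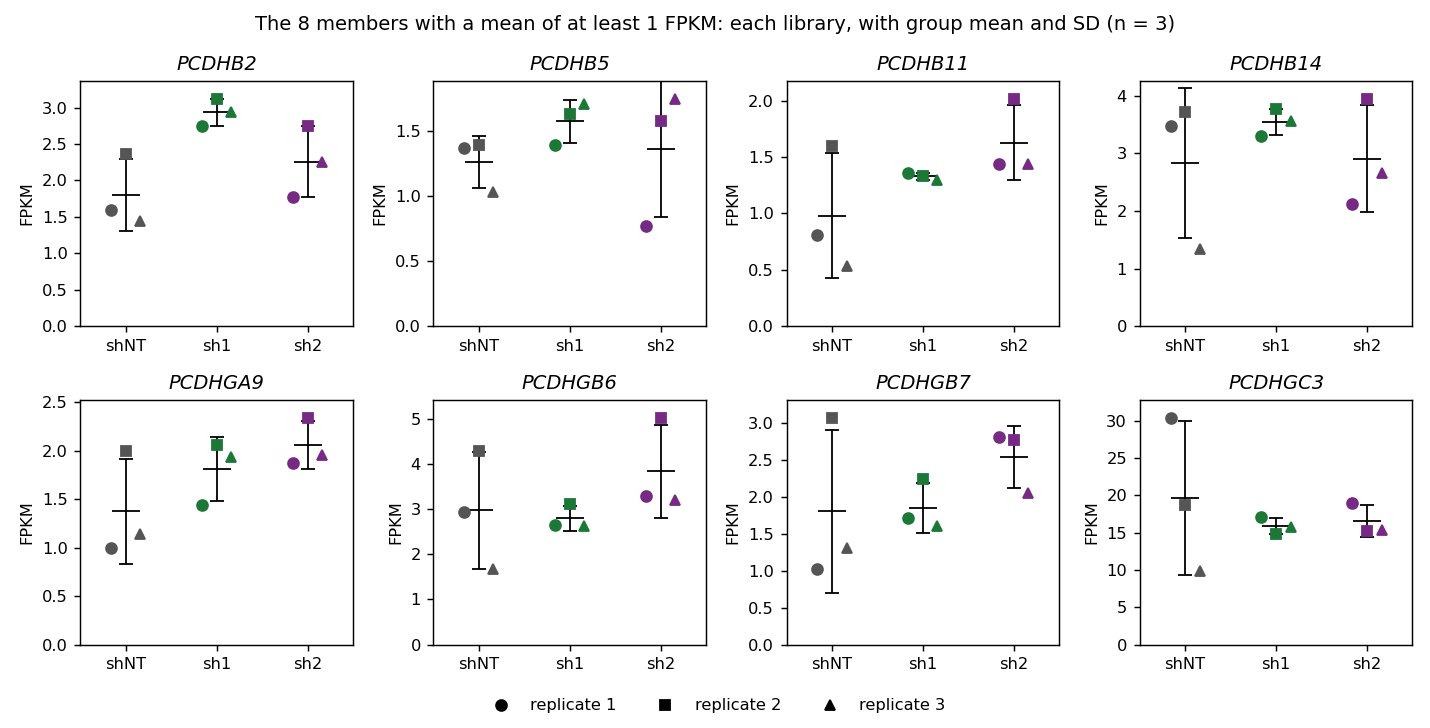
FPKM of the 8 members with a mean of at least 1 FPKM, by hairpin (horizontal axis); symbols give the replicate number, and the black bars give the group mean and SD (n = 3). In every panel the silenced libraries overlap the range of the control libraries, and in PCDHGC3 the control libraries run from 9.89 to 30.4 FPKM around silenced libraries of 14.9 to 19.0 FPKM.

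The lower members were tested with the threshold moved to a mean of 0.1 FPKM and 0.1 added before the log, which put 30 members and 15351 genes into the fit. Again 0 of 30 members passed an adjusted p of 0.05 in any comparison, with background shares of 0.013% for sh1, 0.00651% for sh2, 0.00651% for both hairpins and 0.0261% between the hairpins. At an unadjusted p of 0.05, 6 of 30 members were above control with both hairpins (5.87% of all genes) and 0 of 30 were below (5.7%). They were PCDHB18 (0.69, SE 0.21, adjusted p = 0.359), PCDHB7 (0.62), PCDHB2 (0.51), PCDHGA7 (0.70), PCDHB10 (0.77) and PCDHB11 (0.65), the changes being on the log2(FPKM + 0.1) scale. With sh1 alone 3 of 30 members passed (12.8% of all genes), PCDHB7, PCDHB18 and PCDHB2. With sh2 alone 3 of 30 passed (11.6%), PCDHB18, PCDHGA7 and PCDHB11. All of these were above control, where the shares of all genes were 6.23% with sh1 and 5.36% with sh2. Between the hairpins 1 of 30 passed (13.2%), PCDHB7, which was 0.57 lower with sh2 than with sh1 (log2 difference -0.57, SE 0.23, adjusted p = 0.338). With the replicate number as a block in the same fit, a check added after the data had been seen, 0 of 30 members passed an adjusted p of 0.05 in these comparisons (0.00651% of all genes in each). At an unadjusted p of 0.05 and with the block, 9 of 30 members passed with both hairpins (16.1%), the 6 above and PCDHGA9, PCDHB15 and PCDHB16. All 9 were above control, against 8.21% of all genes. With sh1 4 of 30 passed (17.5%), with sh2 4 of 30 (15.9%) and between the hairpins 1 of 30 (17.8%). Those that passed with sh1 or sh2 were all above control, against 8.54% and 7.78% of all genes.

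By direction, the change with both hairpins was above 0 in 14 of 14 beta members of at least 0.1 FPKM, in 11 of 14 gamma members and in 1 of 2 alpha members, against 47.8% of all genes. On the log2(FPKM + 0.1) scale, which holds for this whole paragraph, the median change was 0.52 in the beta members and 0.18 in the gamma members. Over all genes tested it was -0.017. With each control library left out in turn, a check added after the data had been seen, the beta count was 13 or 14 of 14 and the beta median lay between 0.30 and 0.69. The lowest median was without control replicate 3 and the highest without control replicate 2. The gamma count was 9 of 14 without control replicate 1 or 3 and 12 of 14 without control replicate 2, and the gamma median was 0.092, 0.032 and 0.43, respectively. With sh2 replicate 2 left out instead, the gamma count was 9 of 14 and the gamma median 0.12, and the beta median was 0.43. With any other silenced library left out, the gamma count was 10 to 12 of 14. The beta count was 14 of 14 with any silenced library left out. Neighbouring members share flanking sequence and one chromosomal domain, so these counts are not independent observations. Between the hairpins, sh2 was above sh1 in 4 of 14 beta members and in 12 of 14 gamma members (50.4% of all genes).

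In 3 of 30 members every silenced library was above every control library (2.2% of all genes), and in 0 of 30 every one was below (2.07%). All 3 were beta genes. PCDHB18 had 0.238, 0.426 and 0.339 FPKM in the control replicates and 0.509 to 0.674 FPKM in the silenced libraries. PCDHB7 had 0.169, 0.232 and 0.162 FPKM in the control, 0.443, 0.449 and 0.413 FPKM with sh1, and 0.242, 0.303 and 0.238 FPKM with sh2. PCDHB16 had 0.0694, 0.140 and 0.116 FPKM in the control and 0.146 to 0.301 FPKM in the silenced libraries. The gap between the groups was narrow in PCDHB7 and PCDHB16, where the lowest sh2 library and the highest control library nearly met. Among the 8 members of at least 1 FPKM, 0 were separated in this way upward (2.28% of all genes) and 0 downward (2.17%). Without control replicate 2 the count of separated members above control was 13 of 30, 8 beta and 5 gamma, while the share of all genes was 8.53%.

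Summed over each cluster, the beta level was 9.04, 12.2 and 5.88 FPKM in the control replicates 1 to 3, a mean of 9.06 ± 3.18 (SD, n = 3). It was 13.0 ± 0.332 FPKM with sh1 and 11.4 ± 2.69 FPKM with sh2 (SD, n = 3 each). The ratio of the silenced mean to the control mean was 1.35. The gamma sum was 37.4, 32.5 and 16.2 FPKM in the control (28.7 ± 11.1, SD, n = 3), 25.3 ± 0.401 FPKM with sh1 and 28.6 ± 2.22 FPKM with sh2, a ratio of 0.939. With PCDHGC3 left out, the gamma sum was 7.01, 13.7 and 6.29 FPKM in the control and 8.69 to 14.5 FPKM in the silenced libraries, a ratio of 1.19. In every one of these sums the control libraries differed among themselves by more than the group means differed, and no test was made of a sum over members.

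**Figure D4:**
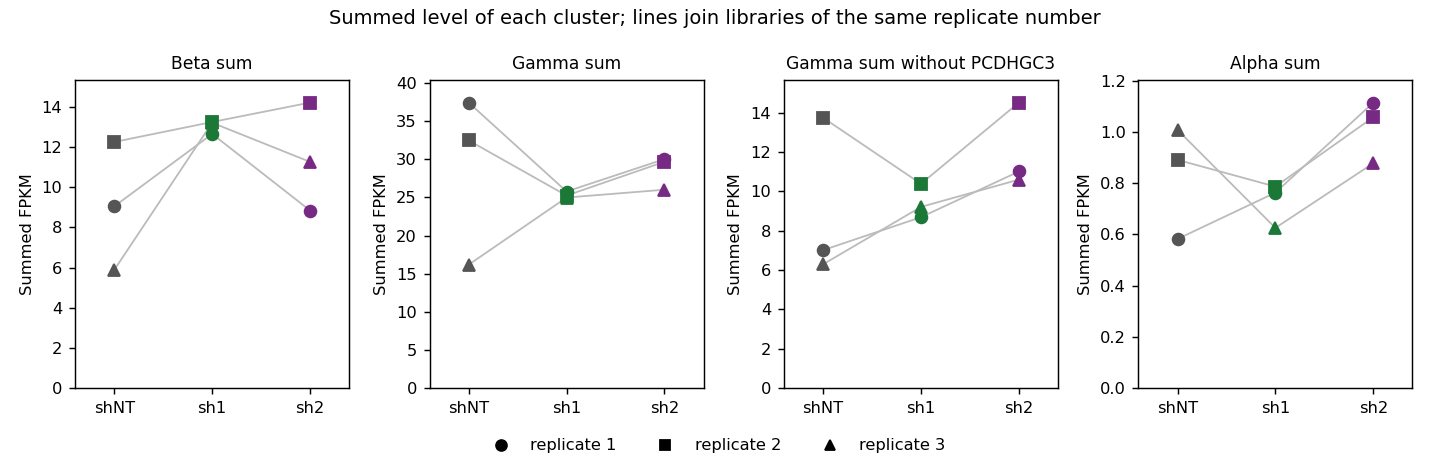
Summed FPKM of the beta cluster, the gamma cluster, the gamma cluster without PCDHGC3 and the alpha cluster, by hairpin (horizontal axis); symbols give the replicate number and lines join libraries with the same number. Control replicate 3 is the lowest library in the first 3 panels, and the control libraries spread more widely than the sh1 libraries in all 4 panels.

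The 3 control libraries differed among themselves in the members. On the log2(FPKM + 0.1) scale, the median deviation of the 14 beta members from each gene's own mean was -0.52 in control replicate 1, 0.18 in control replicate 2 and -0.58 in control replicate 3. For the 14 gamma members it was -0.38, 0.34 and -0.43. The median over all genes lay between -0.0018 and 0.027 in every library. Control replicate 3 was below the gene's own mean in 14 of 14 beta members and 12 of 14 gamma members, and control replicate 1 in 12 of 14 and 13 of 14. Control replicate 2 was below it in 4 of 14 and 0 of 14. Over all genes of at least 0.1 FPKM, control replicate 1 was the lowest library in 21.7% and the highest in 24%. For control replicate 3 these shares were 16.6% and 17.2%, and for control replicate 2 they were 5.12% and 4.92%. Control replicates 1 and 3 were thus often extreme across all genes, in both directions. Of the 30 members, control replicate 1 was lowest in 10 and highest in 1, and control replicate 3 in 13 and 1. The sh2 replicate 2 was highest in 15 of the 30 (6.93% of all genes) and lowest in 0 (6.74%). Among the gamma members PCDHGC3 was the exception in control replicate 1, where it had its highest value and made up 81.3% of the gamma sum.

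**Figure D5:**
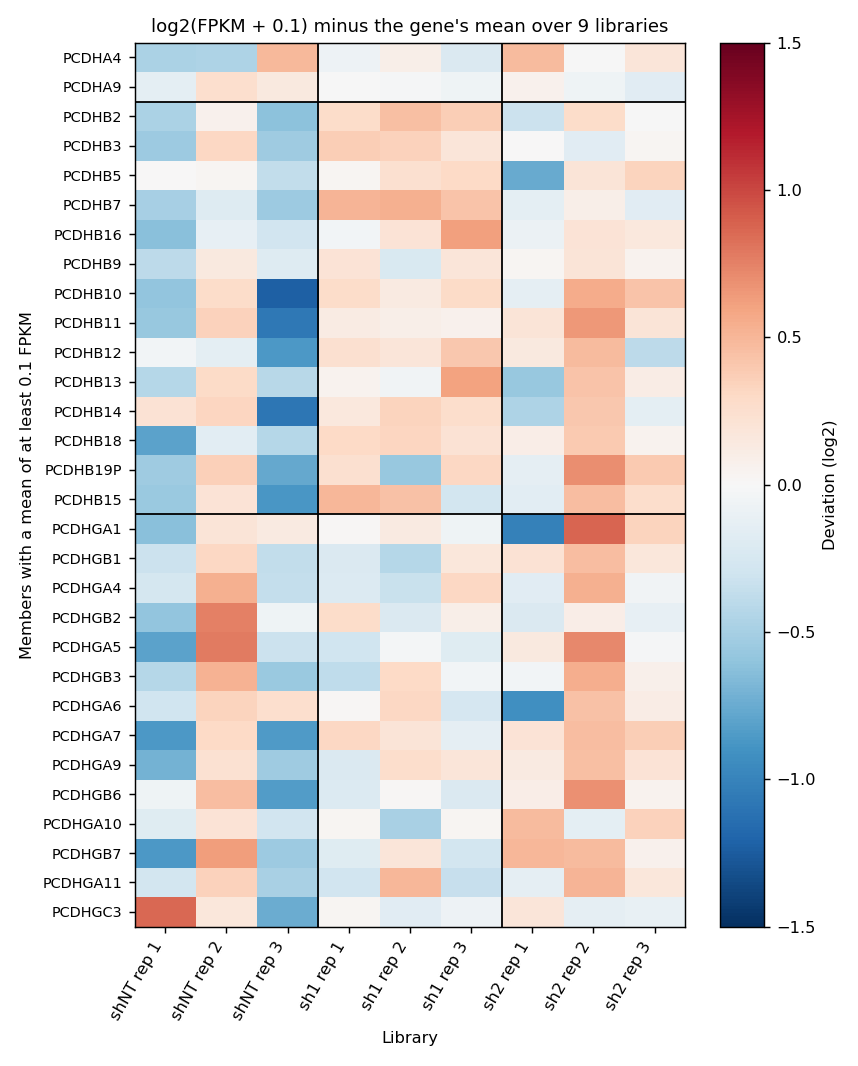
Deviation of log2(FPKM + 0.1) from the gene's mean over 9 libraries, for the 30 members with a mean of at least 0.1 FPKM (rows, in locus order, lines between alpha, beta and gamma) in each library (columns, grouped by hairpin); red is above and blue below the mean. The columns of control replicates 1 and 3 are mostly blue, with PCDHGC3 red in replicate 1, while the columns of control replicate 2 and sh2 replicate 2 are mostly red.

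By replicate number, the ratio of the beta sum in the mean of both silenced libraries to the control library was 1.19 in number 1, 1.12 in number 2 and 2.08 in number 3. The gamma ratio was 0.745, 0.846 and 1.58, and without PCDHGC3 it was 1.40, 0.906 and 1.57. Both silenced libraries were above the control in 11, 8 and 14 of 14 beta members in numbers 1, 2 and 3, against 35.5%, 27.3% and 35.6% of all genes. In the gamma cluster the counts were 9, 2 and 11 of 14. Both were below the control in 1, 0 and 0 of 14 beta members and in 1, 5 and 1 of 14 gamma members, against 39.1%, 26.6% and 36.4% of all genes. The mean beta sum of both silenced libraries was above the control in all 3 numbers. In number 1 this came from sh1 (12.6 FPKM), while sh2 (8.84 FPKM) was below the control (9.04 FPKM). The mean gamma sum of both silenced libraries was above the control in number 3 and below it in numbers 1 and 2. A test of the replicate number itself, with the hairpin in the model, called 0 of 8 members (0.393% of all genes), and 1 of 8 at an unadjusted p of 0.05 (17.4%), PCDHGB6.

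No gene next to the clusters passed the test. Of 20 flanking genes 17 were tested, and 0 rose and 0 fell with both hairpins, with a median change of -0.080 against -0.017 over all genes tested. TAF7, a general transcription factor gene that lies between the beta and gamma clusters, had a change of -0.21 (adjusted p = 0.465). SLC25A2, a mitochondrial carrier gene in the same interval, stayed at or under 0.0829 FPKM and was not tested. DIAPH1, an actin regulator just beyond the gamma cluster, had a change of 0.20 (adjusted p = 0.50). The smallest unadjusted p-values of this list belonged to TMCO6 (-0.53, adjusted p = 0.375) and FCHSD1 (0.26, adjusted p = 0.391). PCDH1, a protocadherin outside the clusters on the same chromosome arm, had 24.7, 49.9 and 72.2 FPKM in the control replicates and 27.7 to 48.0 FPKM in the silenced libraries, a change of -0.40 (adjusted p = 0.537). It was highest in control replicate 3, where most beta and gamma members were low.

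Of 22 genes for factors that act on the clusters 21 were tested, and with both hairpins 0 rose and 1 fell, STAG2 itself. The median change was 0.032. CTCF, which binds the promoters, had a change of 0.029 (adjusted p = 0.931). RAD21, the cohesin subunit that closes the ring, had -0.061 with both hairpins (adjusted p = 0.855). This pooled value averages -0.36 with sh1 (adjusted p = 0.377) and 0.23 with sh2 (adjusted p = 0.521), and the difference between the hairpins was 0.59 (adjusted p = 0.172). STAG1, the paralog that can take the place of STAG2 in cohesin, had 0.20 (adjusted p = 0.556), and SMC1A, a core cohesin subunit, had 0.20 (adjusted p = 0.499). Of 14 genes for partners and processing enzymes of the proteins 13 were tested, and 0 rose and 0 fell (median 0.081). They include APH1A, a subunit of gamma-secretase, which cleaves protocadherins (-0.26, adjusted p = 0.420), and WASF1, a subunit of the WAVE complex that binds the cytoplasmic tail of alpha protocadherins (0.31, adjusted p = 0.385). Of 21 other protocadherins and large cadherins 7 were tested, and 0 rose and 0 fell (median 0.37). FAT1 had a change of 0.73 (adjusted p = 0.328) and FAT2 of 0.47 (adjusted p = 0.389).

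The labelled cell type was checked by marker genes. All 11 urothelial markers were tested, and the lowest gene mean among them was 40.3 FPKM. With sh1, 1 of them fell, CDH1, the gene of the epithelial cadherin (-1.21, adjusted p = 0.0496), which with sh2 had a change of 0.51 (adjusted p = 0.372). Between the hairpins CDH1 was higher with sh2 than with sh1 by 1.72 (adjusted p = 0.0197), and it was the 1 urothelial marker called in that comparison. The smallest unadjusted p-values of this list with both hairpins belonged to FGFR3, a growth factor receptor gene (-0.46, adjusted p = 0.318), and EPCAM, an epithelial adhesion gene (-0.52, adjusted p = 0.328). With sh2 the changes were -0.72 and -0.83 (adjusted p = 0.372 for each), and with sh1 -0.20 for each (adjusted p = 0.561 and 0.636). Since clustered protocadherins are best known from neurons, neuronal markers were examined as well. Only 2 of 12 reached a mean of 1 FPKM, MAP2 and TUBB3, and STMN2 and ELAVL4 were listed at 0 in every library, while the other 8 never exceeded 1.83 FPKM. MAP2, a microtubule protein, had 31.7, 66.7 and 25.3 FPKM in the control replicates and 67.9 to 115 FPKM in the silenced libraries (change 1.20, adjusted p = 0.314). Replicate 2 was its highest control library, as in all of the members of at least 1 FPKM except PCDHGC3. TUBB3 had a change of 0.82 (adjusted p = 0.520). The sum over the 12 markers was 32.1 to 97.2 FPKM in the control and 95.2 to 188 FPKM in the silenced libraries, almost all from those 2 genes, and its part in the members' values was not tested. Markers of other cells were low, with 1 of 6 immune markers (CD68, at most 12.1 FPKM), 1 of 6 fibroblast markers (COL1A1, at most 6.85 FPKM) and 0 of 6 endothelial markers reaching a mean of 1 FPKM.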

How the data were processed

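The authors deposited 1 table of FPKM values for 23370 entries, 92 of them spike-ins, with hg19 as the genome build (per the submitters' processing notes). Which aligner, quantifier and annotation were used is not given in the sources used here. Libraries were stranded and poly(A)-selected, per the labels' protocols. The table had lost decimal points: 10255 of 10270 values without a point were divided by 1000, including 2 of the members' 513 (PCDHB14 in sh1 replicate 1 and PCDHGC3 in control replicate 2). No sequencing depth can be read from the deposited FPKM values, so no counting interval is given.

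Genes with a mean of at least 1 FPKM were tested with limma 3.58.1 (R 4.3.3) on log2(FPKM + 1), with a variance trend, hairpin as the only term and Benjamini-Hochberg adjustment over all genes tested, two-sided. The members, gene lists and tests were chosen with earlier results of these data known. Members of at least 1 FPKM are named with every library's value, those of at least 0.1 FPKM with their range, and from each list the 2 genes with the smallest p and a fixed set of genes. Deviations from group means correlated at 0.118 to 0.491 between same-numbered libraries of different hairpins. Between differently numbered libraries the correlations ran from -0.629 to 0.205, so the ranges overlapped. The numbers were taken to pair the libraries. Promoters came from RefSeq (GRCh38.p14), transcript lengths from GENCODE. The fit was tested on simulated data. Alternatives were the replicate block, other pseudocounts, filters and scalings, leaving out restored genes, and leaving out each library.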

Additional observations from a re-analysis of the deposited data

How the results depend on the processing

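The count of members called at an adjusted p of 0.05 was 0 under every alternative run, including those with the replicate block. With no filter on low genes, the smallest limma adjusted p among members was 0.059, for a beta member with sh1 against control. The block changed counts of members at an unadjusted p of 0.05, which are given beside the results. Counts over all genes moved more. With sh1 against control 20 genes passed, against 77 with the replicate block, 3 with a pseudocount of 0.1, 3 with no filter, 2 with both the lower filter and the lower pseudocount, 1 with these and the replicate block, 4 with median-of-ratios scaling, 0 with spike-in scaling, 3 without restored genes, 0 with the compared groups only, and 0 to 14 with 1 library left out. With sh2 against control 1 gene passed, against 0 with no filter, 2 with spike-in scaling, 0 with the compared groups only, and 0 to 6 with 1 library left out. With both hairpins 1 passed, and 0 to 3 with 1 library left out. Between the hairpins 26 passed, against 17 with the replicate block, 0 with no filter, 4 with both lower settings, 1 with these and the replicate block, 2 with spike-in scaling, 70 with the compared groups only, and 0 to 52 with 1 library left out. For the replicate number 47 passed, against 7 with no filter, 226 with spike-in scaling, 25 without restored genes, and 2 to 209 with 1 library left out. The cause was not tested.

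Spike-in scaling moved the median change of all genes with both hairpins from -0.017 to 0.14 and the share of all genes above 0 from 47.3% to 72.9%. Under it PCDHGC3 had a change of 0.034, and 0.13 with sh2, while PCDHGB6 with sh1 had 0.064. With a pseudocount of 0.1, with or without the lower filter, or with both and the replicate block, PCDHGB6 with sh1 had 0.0058. With 1 library left out, the change with both hairpins ran from -0.14 to 0.37 in PCDHB14, from -0.10 to 0.39 in PCDHGB6 and from -0.54 to 0.23 in PCDHGC3. With sh1 it ran from -0.015 to 0.49 in PCDHB14, from -0.27 to 0.22 in PCDHGB6, from -0.11 to 0.39 in PCDHGB7 and from -0.56 to 0.20 in PCDHGC3. With sh2 it ran from -0.081 to 0.24 in PCDHB5, from -0.26 to 0.25 in PCDHB14 and from -0.51 to 0.25 in PCDHGC3. Between the hairpins it ran from -0.27 to 0.048 in PCDHB5 and from -0.052 to 0.10 in PCDHGC3.

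With the values as deposited, before decimal points were restored, the log2 ratio of silenced to control was 5.96 for the beta sum and -7.86 for the gamma sum, and that of sh2 to sh1 was -6.61 for the beta sum. The log2 ratio of the gamma sum without PCDHGC3 ran from 0.049 to 0.69 with 1 library left out. At a mean of 0.1 FPKM the expressed members were 2 alpha, 14 beta and 14 gamma. The number of members with all silenced libraries above all control libraries ran from 3 to 13 with 1 library left out. Most members lay below 1 FPKM, where the unknown depth limits what these values can show.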
